A study of Saccharomyces cerevisiae with 6 samples.

Results

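The genes examined here encode regulators through which budding yeast senses glucose and switches other genes off or on in response. They are SNF1, SNF4, SIP1, SIP2, GAL83, REG1, MIG1, MIG2, MTH1 and STD1, chosen as the Saccharomyces cerevisiae probe sets that carry one of these symbols in the annotation of the chip. All 10 were found among the 5725 genes measured, each with 1 probe set of its own that the chip design does not mark as shared with another gene. Expression was compared between yeast carrying an empty multi-copy LEU2 plasmid (control, 4 arrays, replicates 1 to 4) and yeast carrying a LEU2 plasmid of the same kind with TEF1, a gene of the translation elongation factor eEF1A (eEF1A, 2 arrays, replicates 2 and 3). By the study's methods TEF1 was driven by the constitutive GPD promoter in a wild-type host. Cultures of both groups were kept in medium without leucine, which selects for the plasmid, started at an optical density of 0.1 and collected in log phase at 0.7 after growth at 30°C. The labels give the cell size as normal for control and enlarged for eEF1A samples, and the host strain of each group is not given in the labels. The methods describe biological triplicates and the labels give 4 and 2 samples, so p-values measure the spread between these samples.

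Snf1 is the yeast member of the AMP-activated protein kinase family. It works as a complex of the catalytic subunit Snf1, the activating subunit Snf4 and a beta subunit, which is Sip1, Sip2 or Gal83. When glucose is scarce the kinase phosphorylates the repressor Mig1, which then leaves the nucleus, and genes for other carbon sources are released. When glucose is plentiful, Reg1 brings the phosphatase Glc7 to Snf1 and keeps the kinase inactive. A second branch runs through the repressor Rgt1, which needs Mth1 and Std1 to silence hexose transporter genes, and glucose sensed by Snf3 and Rgt2 leads to the breakdown of both cofactors. The branches are linked at the level of RNA: in wild-type yeast, glucose is known to induce MIG2 and STD1 and to repress MTH1.

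The values are deposited log2 expression values (RMA), in which 1 unit is a doubling, and limma was fitted across all genes. The words rose and fell are kept for genes with a Benjamini-Hochberg adjusted p under 0.05 from limma, and the B-statistic, the log odds of a change for which the study used a threshold of 1.5, is given beside it. Arrays correlated at 0.998 to 0.999 among controls, 0.996 between the eEF1A replicates and 0.975 to 0.977 between groups. All 10 genes had means above 5.18, the level under which 95 percent of the Schizosaccharomyces pombe probe sets lie, a species on the chip that was not hybridised. The groups differed in cell type markers. All 7 genes of a cells were lower, MFA2 and STE2 by the largest log2 differences (-7.07 and -5.83), with a summed level of 14.53 to 14.59 in control cells and 9.33 and 9.60 in eEF1A replicates 2 and 3. All 4 genes of α cells were higher, MF(ALPHA)1 by at least 7.28 and MF(ALPHA)2 by 7.08 on the log2 scale, with a summed level of 8.49 to 8.58 in control cells and 14.51 and 14.22. Of the nutritional markers, MET17 and URA3 were within the background in control cells and higher in eEF1A cells, by at least 82.6-fold and 2.05-fold. The control arrays thus carried the marker pattern of a cells and the eEF1A arrays that of α cells, with unlike MET17 and URA3 levels. What lies behind these differences accompanies every comparison given here, and its part cannot be told apart from that of the plasmid. TEF1 and TEF2 share a probe set close to the top of the scale, with 14.49 ± 0.01 (SD, n = 4) in control and 14.50 ± 0.01 (SD, n = 2) in eEF1A cells, so the arrays give no check of the overexpression, and LEU2 read 14.36 ± 0.02 (SD, n = 4) and 14.42 ± 0.01 (SD, n = 2). On eEF1A replicate 2 the bacteriophage Cre hybridisation control, added to each sample from outside, read 11.59 against 13.31 to 13.41 on the other 5 arrays. On that array 82.2% of all genes read above eEF1A replicate 3, with a median difference of 0.11. The part of either in the results was not tested. Values without eEF1A replicate 2 are given with each of the 10 regulators. For other called genes they are given where leaving out an eEF1A array ended the call or moved the difference by over 1.5 times. Among other genes that were not called, small differences could move by more or change sign. HXK2, for example, had 0.03 with all arrays and -0.05 without eEF1A replicate 2.

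In eEF1A cells MIG2 was at 0.337-fold of its control level, the furthest shift of the 10 genes, while MIG1 did not pass the test. MIG2 encodes a zinc finger repressor that acts with Mig1 on glucose-repressed genes such as SUC2. Its gene (YGL209W) lies on the plus strand of chromosome VII from 95860 to 97008 in the SGD genome of October 2003 that the chip annotation uses. It read 11.04, 11.18, 11.05 and 11.11 in control replicates 1 to 4, and 9.69 and 9.36 in eEF1A replicates 2 and 3. Both eEF1A arrays thus lay more than 1 log2 unit below all controls. The log2 difference was -1.57 (standard error 0.09, 95% interval -1.78 to -1.36), 2.97-fold lower (adjusted p = 1.00e-05 from limma, B-statistic 8.38). As the RNA is of whole cultures, fewer cells that express a gene and less of its RNA in each cell cannot be told apart. By the size of its difference MIG2 ranked number 57 of 5725 genes. Without eEF1A replicate 2 it was -1.73 and without eEF1A replicate 3 it was -1.41, and the call held with each of the 6 arrays left out.

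MIG1 (YGL035C, minus strand of chromosome VII, 431551 to 433065) encodes the main target of Snf1 among the repressors. It read 9.99, 9.83, 10.02 and 9.93 in control replicates 1 to 4, and 9.91 and 9.62 in eEF1A replicates 2 and 3. The first eEF1A value lay among the controls and the second below them. The log2 difference was -0.17 (95% interval -0.38 to 0.03, adjusted p = 0.152 from limma), which leaves room for a fall as well as for no change. Without eEF1A replicate 2 it was -0.32 (adjusted p = 0.0158 from limma), and with every array centred on its median -0.23 (adjusted p = 0.0267), so this gene passed in some settings only.

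**Figure D1:**
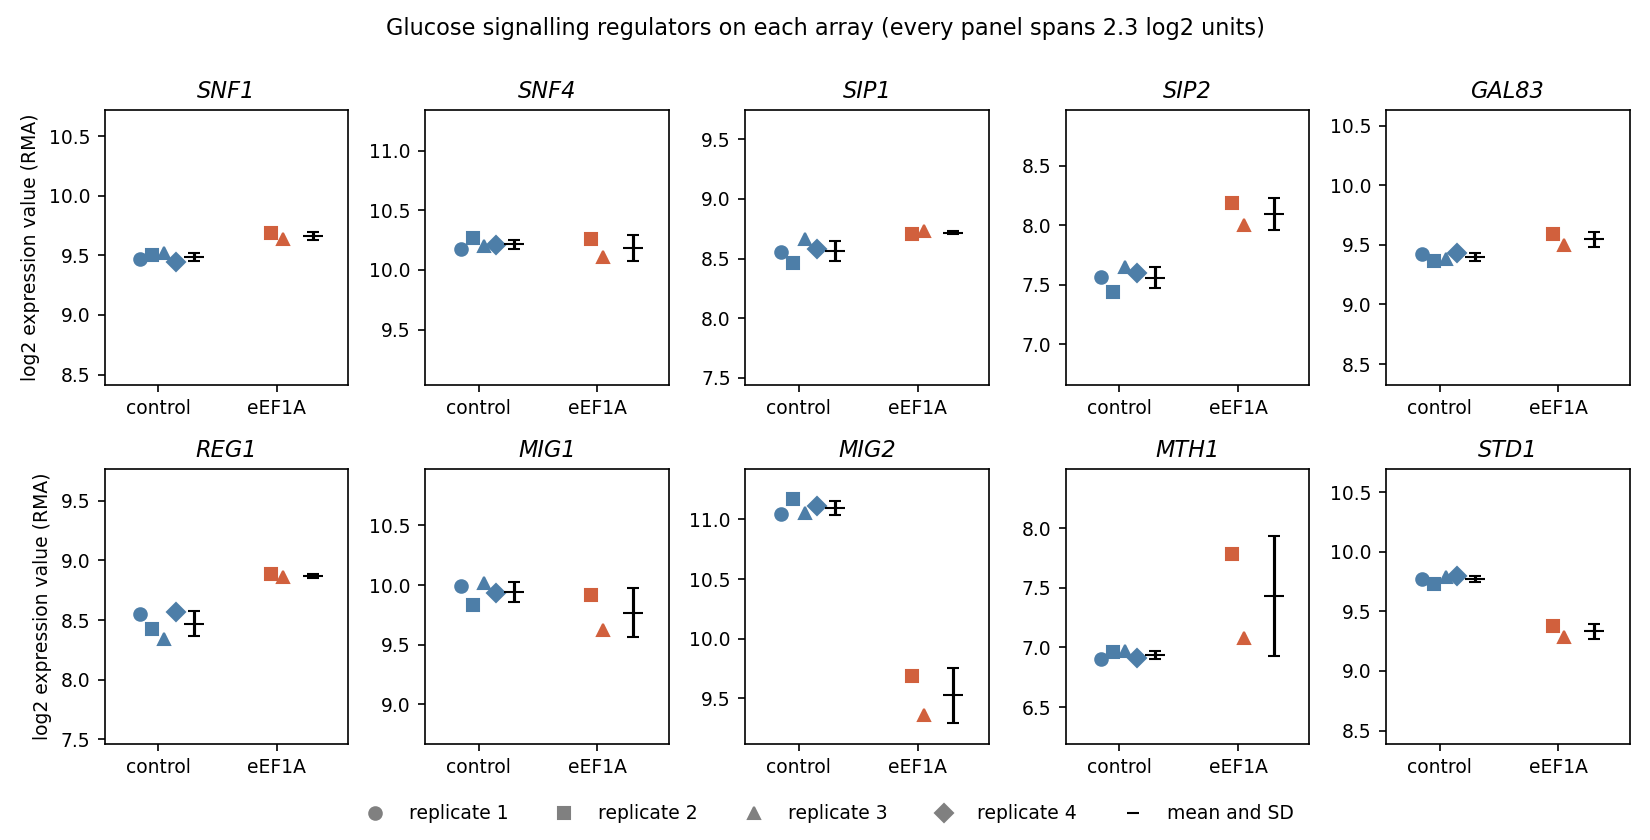
Log2 expression value (vertical axis, RMA) of each regulator on each of the 6 arrays, by group; symbols mark the replicate number, and the bar beside each group is its mean ± SD (n = 4 control, n = 2 eEF1A). MIG2 and STD1 are lower on both eEF1A arrays than on any control, and MTH1 reads 7.78 on eEF1A replicate 2 but 7.08 on replicate 3.

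The paralogous cofactors of Rgt1 went opposite ways: STD1 fell and MTH1 rose, the rise of MTH1 coming mainly from 1 array. STD1 (YOR047C, minus strand of chromosome XV, 416347 to 417681) read 9.77, 9.73, 9.78 and 9.79 in control replicates 1 to 4, and 9.38 and 9.29 in eEF1A replicates 2 and 3. Its arrays were tightly grouped, with a control SD of 0.03. The log2 difference was -0.44 (standard error 0.05, 95% interval -0.55 to -0.32), a level 1.35-fold lower in eEF1A cells (adjusted p = 3.90e-04 from limma, B-statistic 2.28). The call held with each array left out, with a difference of -0.48 without eEF1A replicate 2 and -0.39 without eEF1A replicate 3.

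MTH1 (YDR277C, minus strand of chromosome IV, 1014393 to 1015694) read 6.90, 6.96, 6.97 and 6.91 in control replicates 1 to 4, and 7.78 and 7.08 in eEF1A replicates 2 and 3. Both eEF1A values lay above all controls, replicate 2 by 0.85 over the control mean and replicate 3 by 0.14. This gap between the eEF1A arrays was exceeded by 0.576% of all genes. The log2 difference was 0.50 (standard error 0.16, 95% interval 0.13 to 0.87), a 1.41-fold rise (adjusted p = 0.0363 from limma, B-statistic -4.54). The call did not survive without eEF1A replicate 2, where the difference was 0.14 (adjusted p = 0.0790 from limma), and without eEF1A replicate 3 it was 0.85 (adjusted p = 6.20e-05). It was also lost without control replicates 1, 2, 3 and 4 in turn (adjusted p = 0.0743, 0.0643, 0.0687 and 0.0657 from limma).

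Within the Snf1 complex, the beta subunit gene SIP2 rose and the kinase gene SNF1 rose slightly, while the activating subunit and the other beta subunits did not pass the test. SIP2 (YGL208W, plus strand of chromosome VII, 97340 to 98587) encodes a beta subunit that keeps the kinase in the cytoplasm. It read 7.56, 7.44, 7.65 and 7.60 in control replicates 1 to 4, and 8.19 and 8.003 in eEF1A replicates 2 and 3. Both eEF1A arrays were higher than every control. The log2 difference was 0.53 (standard error 0.08, 95% interval 0.36 to 0.71), a 1.45-fold rise (adjusted p = 0.00105 from limma, B-statistic 0.71, under the study's threshold). Without eEF1A replicate 2 it was 0.44, and the call held with each array left out. SIP2 follows MIG2 on the same strand, with 331 bases between their coding regions. With all 6 arrays, the genes with the furthest rise and the furthest fall of the 10 are thus neighbours. Without eEF1A replicate 3 the difference of MTH1 (0.85) was larger than that of SIP2 (0.63). A link between the neighbours was not tested.

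SNF1 (YDR477W, plus strand of chromosome IV, 1412361 to 1414262) read 9.47, 9.50, 9.52 and 9.45 in control replicates 1 to 4, and 9.68 and 9.64 in eEF1A replicates 2 and 3. The groups did not overlap, but the step was small, a log2 difference of 0.18 (standard error 0.05, 95% interval 0.06 to 0.29), or 1.13-fold (adjusted p = 0.0207 from limma, B-statistic -3.77). It did not pass without eEF1A replicate 2 (difference 0.15, adjusted p = 0.0606 from limma), control replicate 1 (0.0633) or control replicate 4 (0.0697).

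SNF4 (YGL115W, plus strand of chromosome VII, 292034 to 293002) read between 10.17 and 10.27 in control cells, and 10.26 and 10.11 in eEF1A replicates 2 and 3. Its groups overlapped, with a log2 difference of -0.03 (95% interval -0.17 to 0.11, adjusted p = 0.725 from limma). SIP1, whose product is the beta subunit of the vacuole (YDR422C, minus strand of chromosome IV, 1315314 to 1317905), read between 8.46 and 8.66 in control cells, and 8.71 and 8.73 in eEF1A cells. GAL83, whose product takes the kinase to the nucleus (YER027C, minus strand of chromosome V, 208978 to 210231), read between 9.37 and 9.43 in control cells, and 9.59 and 9.50 in eEF1A cells. Both genes had eEF1A values above all controls but missed the threshold, with log2 differences of 0.15 (95% interval 0.01 to 0.30, adjusted p = 0.0821 from limma) and 0.15 (95% interval 0.03 to 0.27, adjusted p = 0.0529). SIP1 passed without control replicate 3 (difference 0.19, adjusted p = 0.0433 from limma) and GAL83 without eEF1A replicate 3 (difference 0.19, adjusted p = 0.0280). Without eEF1A replicate 2 GAL83 had a difference of 0.10 (adjusted p = 0.189), SIP1 of 0.16 (adjusted p = 0.135) and SNF4 of -0.11 (adjusted p = 0.184).

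REG1, the gene of the targeting subunit that brings Glc7 to Snf1, rose (YDR028C, minus strand of chromosome IV, 497831 to 500875). It read 8.55, 8.42, 8.34 and 8.56 in control replicates 1 to 4, and 8.88 and 8.86 in eEF1A replicates 2 and 3. The eEF1A arrays were close together and above all controls, which varied more (SD 0.11) than those of the other 9 regulators. The log2 difference was 0.40 (standard error 0.07, 95% interval 0.23 to 0.57), a 1.32-fold rise (adjusted p = 0.00315 from limma, B-statistic -1.02). It was 0.39 without eEF1A replicate 2, and the call held with each array left out.

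In all, 4 of the 10 genes rose (SNF1, SIP2, REG1 and MTH1) and 2 fell (MIG2 and STD1), where 43% of all genes were called, 27.5% as higher and 15.5% as lower. At a B-statistic above 1.5 there were 2, both lower, where 8.61% of all genes passed, 6.1% as higher and 2.52% as lower. The eEF1A arrays lay above all controls for 6 of the 10 genes and below them for 2, together 8, and over all genes in 35.8%, 21.5% and 57.2%. The median log2 difference was 0.15 over the 10 genes and 0.04 over all genes. With 10 genes and a background this high, the share called says nothing particular about these regulators. The balance of higher and lower calls depended on the scaling: 64% of all calls were higher with the deposited values and 48.7% with median centring, under which MIG1 joined the genes that fell and the 6 called genes kept their direction and their call.

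**Figure D2:**
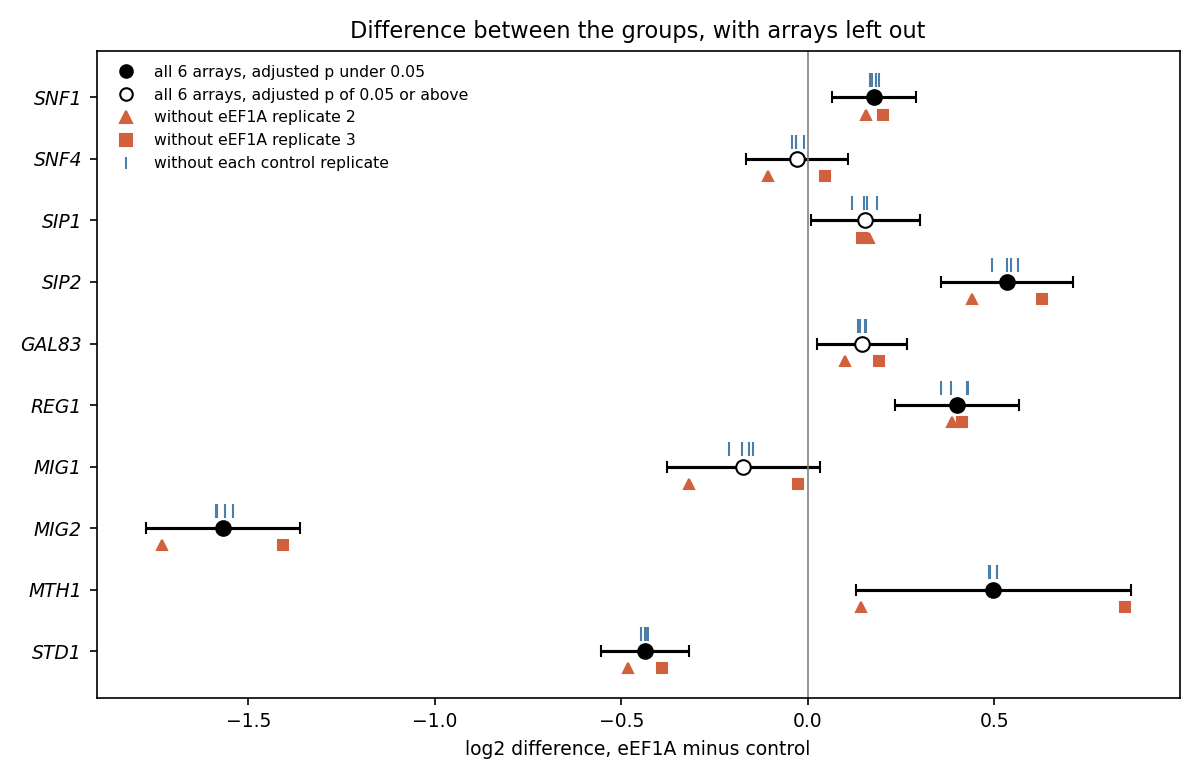
Log2 difference between eEF1A and control cells (horizontal axis) for each regulator, with its 95% interval from limma over all 6 arrays; triangles, squares and ticks give the difference with an array left out. MIG2 stands apart at -1.57, and the triangle and square of MTH1 are far apart, at 0.14 without eEF1A replicate 2 and 0.85 without replicate 3.

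Pairs of these genes were also compared. The difference between the members of a pair within an array does not move with a shift that an array adds to all genes alike. These differences were compared between groups in 7 pairs by a two-sided exact permutation test, whose smallest possible p with 4 against 2 arrays is 0.0667. MIG1 minus MIG2 read -1.05, -1.35, -1.03 and -1.18 on control replicates 1 to 4, and 0.23 and 0.26 on eEF1A replicates 2 and 3. The ratio of the probe set signals thus moved by 1.40 on the log2 scale, or 2.63-fold, nearly alike on both eEF1A arrays. MTH1 minus STD1 read -2.87, -2.77, -2.82 and -2.88 on control replicates 1 to 4, and -1.59 and -2.21 on eEF1A replicates 2 and 3. That shift was 0.93, in the same direction on both eEF1A arrays but of unequal size, and was 0.63 without eEF1A replicate 2. SIP2 minus GAL83, paralogs that descend from one gene, was -1.93 to -1.73 in control cells and -1.40 and -1.496 in eEF1A cells, a shift of 0.39.

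For SIP1 minus SIP2 the control arrays read 0.98 to 1.02 and the eEF1A arrays 0.52 and 0.72, a shift of -0.38. SNF1 minus SNF4 moved from between -0.77 and -0.68 to -0.58 and -0.47, and MIG1 minus REG1 from between 1.37 and 1.67 to 1.03 and 0.77. In 6 of the 7 pairs the groups did not overlap and the exact p was 0.0667, the smallest possible (0.0778 after Benjamini-Hochberg adjustment over the 7 pairs), so no pair could pass 0.05. SIP1 minus GAL83 was the exception, with overlapping groups and a shift of 0.01 (exact p = 1). Several pairs share a member, so they are not separate results. Among all genes taken singly the groups did not overlap in 57.2%, and the share over pairs of other genes was not computed. Nothing particular to these pairs is read from the count.

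**Figure D3:**
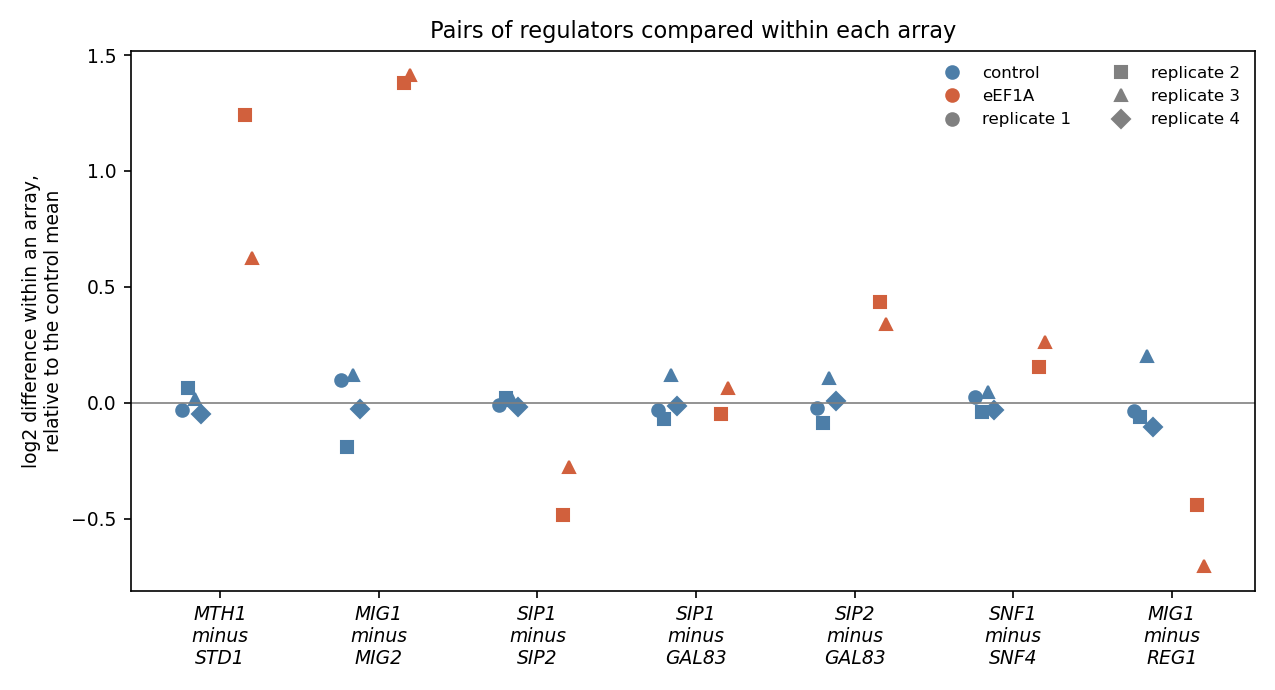
Log2 difference between the members of each pair within an array (vertical axis, relative to the mean of the control arrays), for 4 control and 2 eEF1A arrays; each point is 1 array. The eEF1A points of MIG1 minus MIG2 lie 1.40 above the controls on average, those of MTH1 minus STD1 are spread, and those of SIP1 minus GAL83 lie among the controls.

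Of 51 other genes of the same signalling system, on 6 lists of pathway partners and target genes, 50 were measured, of which 13 rose and 10 fell, with a median log2 difference of 0.06. Over all genes 27.5% rose and 15.5% fell, with a median of 0.04, and nothing particular to the lists is read from their counts. Of the 7 kinases, phosphatase partners and Snf1-binding proteins, 1 rose and 2 fell. SIP5, whose product binds Snf1 and Reg1, rose by 0.36 on the log2 scale (7.44 and 7.41 on the eEF1A arrays against 6.97 to 7.18 on the control arrays). ELM1, a kinase that activates Snf1, had a difference of -0.24 (-0.18 without eEF1A replicate 3), and REG2, a relative of REG1, of -0.47. The difference of REG2 was -0.81 without eEF1A replicate 2, and its call was lost without eEF1A replicate 3 (difference -0.12, adjusted p = 0.107 from limma) and without each control replicate (adjusted p from 0.0713 to 0.0832). HXK2, the main hexokinase on glucose and a partner of Mig1, and GLC7 itself had differences of 0.03 and 0.11 (adjusted p = 0.748 and 0.0966 from limma).

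Among the 5 corepressors and other repressors, MIG3, a close relative of MIG2, fell by 0.42 on the log2 scale, from 9.39 to 9.60 on the control arrays to 9.17 and 9.01 on the eEF1A arrays. The related repressors NRG1 and NRG2, which bind Snf1, went opposite ways: NRG1 rose by 0.66, from 7.57 to 7.99 in control cells to 8.44 and 8.34, and NRG2 fell by 0.48, from 8.72 to 8.84 to 8.19 and 8.40. These calls held with each array left out. TUP1 and CYC8, which form the corepressor that Mig1 recruits, had log2 differences of 0.09 and 0.11 (adjusted p = 0.351 and 0.292 from limma).

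Of the 6 genes of the Rgt1 branch 3 rose and 0 fell, and 1 rose with array weights, with the replicate number as a block, with only the arrays numbered 2 and 3, and without control replicate 1, control replicate 4 or eEF1A replicate 2. With the deposited scaling no gene of the list had a difference below 0. Centring the arrays on their medians lowers the differences of all genes alike and takes their median from 0.04 to -0.02. The lowest of the list then lie below 0. RGT2, the sensor of high glucose, rose by 0.34 on the log2 scale (7.80 and 7.85 against 7.42 to 7.58). SNF3, the sensor of low glucose, and YCK1, a casein kinase that marks Mth1 and Std1 for breakdown, had differences of 0.20 and 0.19. Without eEF1A replicate 2 the difference of SNF3 was 0.10 (adjusted p = 0.180 from limma) and that of YCK1 was 0.15 (adjusted p = 0.0654), so neither passed. Both calls were also lost without control replicates 1 and 4, where the differences stayed near their full values, at 0.19 and 0.19 for SNF3 (adjusted p = 0.0867 and 0.0890 from limma) and 0.18 and 0.19 for YCK1 (adjusted p = 0.0549 and 0.0542). SNF3 did not pass either without control replicates 2 and 3 (0.21, adjusted p = 0.0558, and 0.20, adjusted p = 0.0632, from limma). The paralog YCK2 and the ubiquitin ligase gene GRR1 had differences of 0.12 and 0.00 (adjusted p = 0.0716 and 0.989). Of the 4 transporter genes that Rgt1 represses, HXT4 rose and HXT2 fell, with log2 differences of 1.29 and -1.30. HXT1 and HXT3, the low-affinity transporters, had differences of -0.03 and -0.09 (adjusted p = 0.603 and 0.385 from limma). That of HXT3 was -0.22 without eEF1A replicate 2 and 0.04 without eEF1A replicate 3.

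Of 8 activators of glucose-repressed genes 3 rose and 0 fell, with 1 lower call under median centring and under quantile normalisation again. SIP4, a Snf1-dependent activator of gluconeogenic genes, rose by 0.56 on the log2 scale, from 5.30 to 5.59 in control cells to 5.998 and 5.976. HAP5 and HAP4, parts of the complex that activates respiratory genes, rose by 0.41 and 0.36. These calls held with each array left out, that of HAP4 narrowly, with a difference of 0.20 without eEF1A replicate 2 (adjusted p = 0.0448 from limma). HAP2 and HAP3 of the same complex had differences of 0.05 and -0.06 (adjusted p = 0.471 and 0.416 from limma). Of 20 measured genes that glucose represses, 4 rose and 5 fell, with a median of -0.12. HXK1, a hexokinase, rose by 1.41, with 10.005 and 8.89 on the eEF1A arrays against 7.95 to 8.17 on the control arrays. Its difference was 0.85 without eEF1A replicate 2 and 1.97 without eEF1A replicate 3, and the call held in both. ADH2, the alcohol dehydrogenase that consumes ethanol, fell by 0.58, and ICL1, the isocitrate lyase of the glyoxylate cycle, fell by 0.72. FBP1, the gluconeogenic fructose bisphosphatase, fell by at least 0.62, its eEF1A mean being within the background, and its fitted difference was -1.01 without eEF1A replicate 2. Without eEF1A replicate 3 neither ICL1 (difference -0.49, adjusted p = 0.145 from limma) nor FBP1 (-0.26, adjusted p = 0.244) passed, and FBP1 was also lost without control replicates 1, 3 and 4 (adjusted p = 0.0659, 0.0768 and 0.0572). SUC2, the invertase gene that Mig1 and Mig2 repress, had a difference of -0.07 (9.46 and 9.30 on the eEF1A arrays against 9.31 to 9.55, adjusted p = 0.484 from limma), and GUT1, the glycerol kinase, of 0.06 (adjusted p = 0.494).

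**Figure D4:**
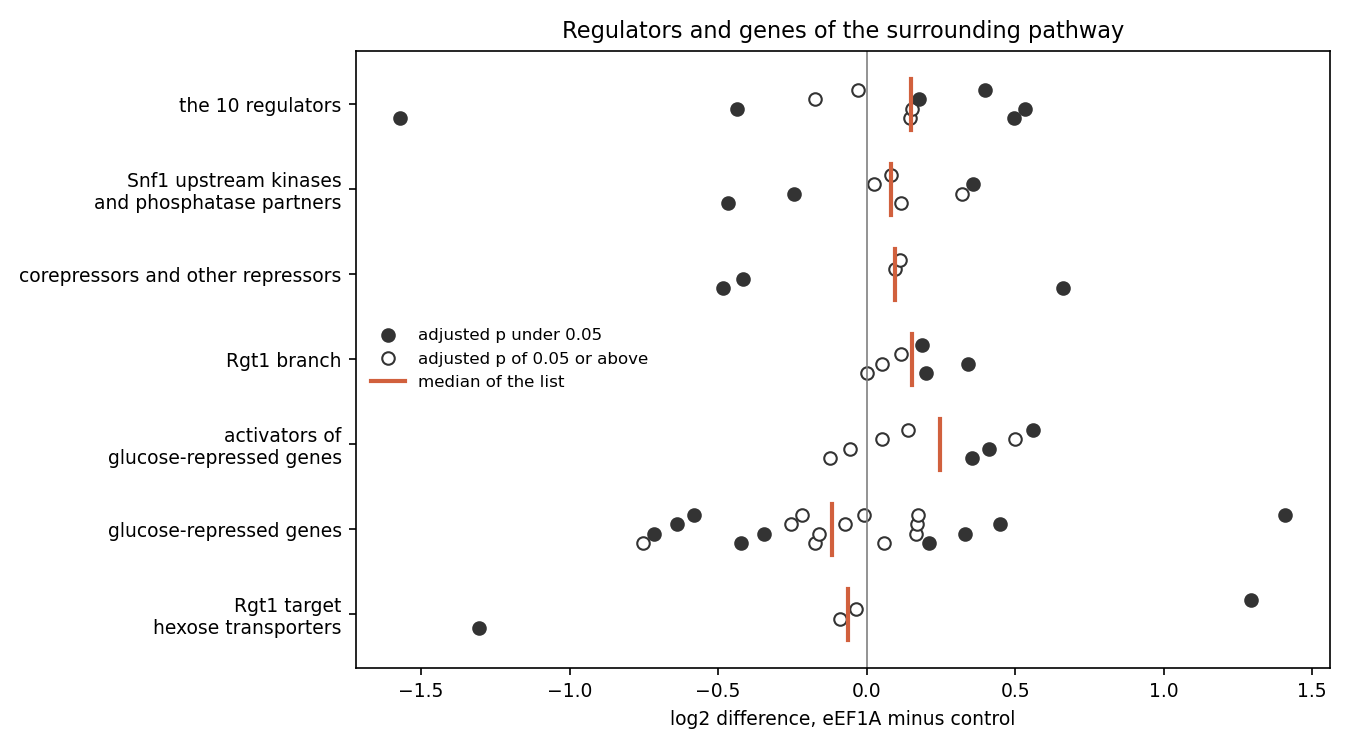
Log2 difference between eEF1A and control cells (horizontal axis) for the 10 regulators and for the measured genes of each pathway list; each point is 1 gene, filled where its adjusted p from limma was under 0.05, and the bar is the median of the list. With the deposited scaling, the 10 regulators run from -1.57 to 0.53, and the 20 measured glucose-repressed genes have a median of -0.12.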

How the data were processed

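Total RNA of log phase cultures was hybridised to 6 Affymetrix Yeast 2.0 arrays. The authors normalised the arrays with RMA in affylmGUI (versions not given in the sources used here), and the deposited values are on the log2 scale, for 10928 probe sets. RMA gives all arrays 1 common distribution, with probe sets of both yeast species included, and so assumes few changes. The authors' comparison (fold changes, p-values and B-statistics) and Gene Ontology counts were not used. Columns of other samples were 0 in number.

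Gene names, species and coordinates come from the deposited chip annotation (columns other than values). Names were updated by locus tag from RefSeq (assembly R64), which held 5713 of the 5810 S. cerevisiae probe sets. RefSeq gives SIP1 a length of 2448 bases, where the chip annotation of 2003 gives 2592. The lengths of the other regulators are the same in both. A gene with several probe sets is represented by the one with the highest mean. The linear model (limma 3.58.1, R 4.3.3) had the group as its only term and was fitted to the deposited log2 values of the 5810 probe sets. The prior proportion was 0.01, with 4.09 prior and 4 residual degrees of freedom, and p-values were adjusted over 5725 genes. The number of arrays limits the precision. The fit was tested on simulated data with log2 changes of 0.5, 1 and 2, of which 85.1%, 98.5% and 100% were recovered. The differences of SNF1, REG1, STD1 and MTH1 were smaller than any of these, so the simulation does not cover them.

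The regulators, lists and tests were chosen with earlier results of these data known. Named are the 10 regulators, from each pathway list at most 4 called genes (by size of change) and at most 2 others (by mean level), the marker genes with the 2 largest changes, LEU2, TEF1/TEF2 and the 5 genes most like MIG2. ADR1 was named after its values were seen. Where a group mean was within the background, 5.18 was put in its place and the change is given as at least that size. Alternatives were the B-statistic threshold, moderation over the whole chip, leaving out dim probe sets or those shared between genes, a second quantile normalisation of S. cerevisiae probe sets alone, centring on medians, limma-trend, a robust prior, weighted arrays, a block for the replicate number, leaving out each array, and the arrays numbered 2 and 3 alone.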

Additional observations from a re-analysis of the deposited data

Results flagged for a closer look

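None of the 10 regulators had a control array far from the other 3 by Dixon's criterion, which needs at least 4 samples and was applied to the control arrays only. Among 77 genes of the regulators and lists, 6 had such an array, and chance gives about 1 in 20. RGT1 read 8.79 on control replicate 3 against 8.63 to 8.66 on the other controls. The log2 value of YCK2 on that array was 10.22, the others lying at 10.20. For JEN1 it was 6.05 on the same array, where the others read 5.82 to 5.85. RDS2 read 7.69 on control replicate 2 against 7.93 to 7.97, and HXT4 read 8.86 there against 8.55 to 8.59. GAL3 read 5.95 on control replicate 4 against 5.72 to 5.75.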

How the results depend on the processing

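Over 17 alternatives, MIG2 and STD1 were called in all, and SIP2 and REG1 in all but the B-statistic threshold. MTH1 was called in 9 and SNF1 in 10. Of 170 member values under alternatives, 148 kept their side of the threshold, 17 lost the call, 5 gained it and 0 reversed a call. SNF4, never called, changed sign in 1. The 4 regulators that rose became 0 at a B-statistic above 1.5, 2 with only the arrays numbered 2 and 3, and 2 to 5 with an array left out. Over all genes, 1576 higher and 885 lower calls became 349 and 144 at a B-statistic above 1.5, 854 and 461 with only arrays 2 and 3, and 774 and 437 with the replicate number as a block. Lower calls were 1491 after quantile normalisation again, 1451 with median centring, 562 with array weights and 624 to 1235 with an array left out, and higher calls then were 1190 to 1858. The 13 pathway genes that rose became 0 at the B threshold, 8 with the replicate block and 7 with arrays 2 and 3, and the 10 that fell became 1 at the B threshold. The causes were not tested. Deviations from the group means correlated at -0.045 between the arrays numbered 2 and at -0.00884 between those numbered 3. With 2 eEF1A arrays the deviations of one mirror those of the other, so these values cannot decide whether the shared numbers pair the arrays. The replicate block took the call from SNF1 (adjusted p = 0.509 from limma) but not from MIG2 or STD1. Its estimates rest on the arrays numbered 2 and 3, with 0.15 for SNF1 in both settings. The standard error was 0.14 for SNF1, SIP2 and REG1 alike, so the block sorted these genes by the size of their difference. It is not a separate check from the arrays numbered 2 and 3. After quantile normalisation again, MTH1 minus STD1 shifted by 0.84 and SIP1 minus SIP2 by -0.35, and with an array left out by 0.63 to 1.24 and -0.48 to -0.28, with SNF1 minus SNF4 at 0.15 to 0.26. Without an eEF1A array, the other was assumed to vary like the controls. The size that could be called depended on the spread of each gene: SNF1 passed at 0.18, while ADR1 at 0.50 did not.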

Other observations

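The genes whose pattern over the 6 arrays was most like that of MIG2 were RCL1, YNR071C, YGR079W, LCP5 and ATC1, with Pearson correlations of 0.997 to 0.998. RCL1 and LCP5 act in the processing of the small ribosomal subunit RNA. All 5 were lower in eEF1A cells, YGR079W by a log2 difference of -1.63 and RCL1 by -0.71. With 6 arrays in 2 groups a correlation of this kind mostly follows the difference between the groups, and 71 genes correlated with MIG2 above 0.99.

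For 9 of the 10 regulators eEF1A replicate 2 read above eEF1A replicate 3, SIP1 being the exception, and it did so for 82.2% of all genes. ADR1, a Snf1-dependent activator of ethanol and fatty acid use, read 7.76 and 6.91 on those arrays against 6.75 to 6.90 on the control arrays. This split resembles that of MTH1, and the difference of ADR1 did not pass (adjusted p = 0.0663 from limma). The hybridisation controls BioC and BioD were lower on eEF1A replicate 2 as Cre was. BioC read 7.92 there against 9.14 to 9.54 on the other 5 arrays, and BioD read 10.02 against 11.54 to 11.85.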
